A study of Homo sapiens with 6 samples.

Results

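Mitochondrial biogenesis and the transcription of mitochondrial DNA (mtDNA) depend on a small set of nuclear genes, and 10 of them are described here. They are the coactivator genes Ppargc1a, Ppargc1b and Pprc1, the transcription factor genes Nrf1, Gabpa and Esrra, and the mtDNA transcription genes Tfam, Tfb1m, Tfb2m and Polrmt. They were taken by symbol from the 38986 gene rows that each count file lists. All 10 had a row and all 10 passed the filter on low counts, among 12938 genes tested.

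By its labels, the study compared mCherry-positive 293T cells in 2 groups of 3 RNA-seq libraries. 293T is a human embryonic kidney line, and the labels give DMEM with fetal bovine serum for both groups. The counts differ from this cell label, as described below. One group is labelled as overexpressing STAT6 (wild-type STAT6, a transcription factor of interleukin signalling), the other as Mock with the genotype WT. The series asks how STAT6 bears on mitochondrial gene expression. The labels give neither the promoter that drives STAT6 nor separate cultures for the libraries, and the p-values therefore speak only of how these libraries scatter, part of which can be technical.

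The members form a relay from the nucleus to the organelle. PGC-1 alpha (Ppargc1a), PGC-1 beta (Ppargc1b) and the PGC-1-related coactivator (Pprc1) do not bind DNA themselves but dock on transcription factors and raise their activity. NRF1 and GABP, also called nuclear respiratory factors, and the orphan nuclear receptor ERR alpha (Esrra) bind promoters of respiratory chain genes and of the mtDNA transcription machinery. In the matrix, TFAM packages mtDNA and bends its promoters, TFB2M melts the promoter, and POLRMT is the RNA polymerase. TFB1M, a relative of TFB2M, methylates the small mitochondrial rRNA. In pigment cells and melanoma, the lineage factor MITF is known to drive PPARGC1A. Nrf1 here is nuclear respiratory factor 1 and not Nfe2l1 or Nfe2l2, which share the abbreviation NRF.

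The files and the labels differ in ways that touch every direction below. The gene symbols are those of the mouse, although the labels name a human line, and Stat6 was lower in the libraries labelled STAT6 (33.6 ± 1.53 CPM, SD, n = 3) than in those labelled Mock (94.5 ± 1.49 CPM; log2 fold change -1.49, SE 0.045, edgeR adjusted p = 7.47e-26). Of 10 kidney epithelium markers, Pax8, Epcam and Umod were at 0 in all 6 libraries, and the list summed to 63.8 to 72.9 CPM in the libraries labelled Mock and 39.6 to 42.9 CPM in those labelled STAT6, most of it Cubn (means of 65.8 and 37.2 CPM), with Cdh1 (0.593 and 2.24 CPM) and Aqp1 (0.213 and 2.07 CPM) in the opposite order. The 10 pigment cell markers summed to 14690 to 15050 CPM in the libraries labelled Mock and 17040 to 17190 CPM in those labelled STAT6, with 6 called higher and 3 lower. Among them Dct had means of 4264 and 6179 CPM and Tyr of 303 and 29.1 CPM, the Mock mean first. Of 6 fibroblast markers 1 was called higher and 1 lower. Their sum, 18.8 to 20.7 CPM in the libraries labelled Mock and 78.6 to 84.9 CPM in those labelled STAT6, followed Col1a1 (means of 4.85 and 78.7 CPM), while Col1a2 had means of 13.4 and 2.14 CPM and Col3a1, Dcn and Lum at most 0.0759 CPM. Leukocyte markers summed to at most 1.43 CPM in the libraries labelled Mock and 4.12 CPM in those labelled STAT6, and muscle and brown fat markers to at most 0.517 and 1.30 CPM. The part of these markers in the results was not tested. "Higher" and "lower" mean higher or lower in the libraries labelled STAT6, as the labels stand. Library totals were 19894773 to 29802693 counts, and CPM are counts scaled to the library total after adjustment by edgeR's TMM factors. In a bulk sample, fewer cells that express a gene and less RNA per cell cannot be told apart.

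Of the 10 regulators, 5 were lower, 2 were higher and 3 did not pass the threshold of adjusted p 0.05. Ppargc1a, Pprc1, Nrf1, Gabpa and Tfb1m were lower, and Tfam and Polrmt were higher. This share has to be read against a comparison in which 72.6% of all tested genes passed, 35.8% higher and 36.8% lower, so that 7 of 10 is close to the background. The median log2 fold change was -0.18 over the 10 regulators and -0.0033 over all genes tested. The 7 called genes were also the 7 whose groups did not overlap, a pattern that 74.6% of all tested genes showed. Against a change of more than 1.5-fold (glmTreat), which 21.5% of all genes passed (14.0% higher, 7.51% lower), 1 regulator was called, Ppargc1a (lower, adjusted p = 1.09e-05). Counts carry no length scaling, and levels are therefore not ranked between genes.

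**Figure D1:**
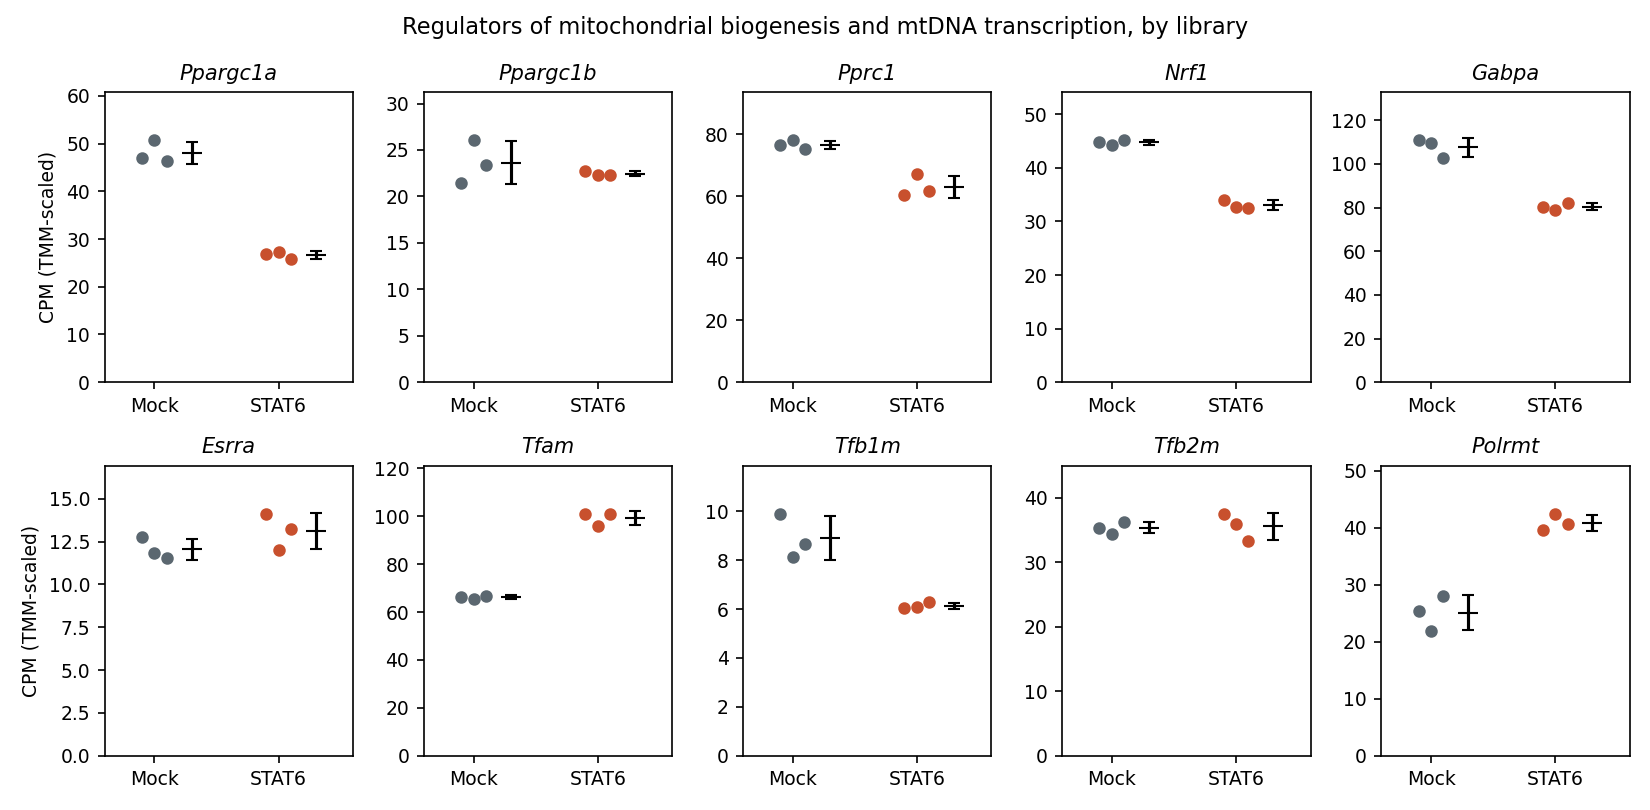
Each panel plots 1 regulator's CPM (vertical axis, from 0) in the 3 libraries labelled Mock and the 3 labelled STAT6 (points), with the mean and SD beside them. The groups are apart for Ppargc1a, Pprc1, Nrf1, Gabpa, Tfam, Tfb1m and Polrmt, and overlap for Ppargc1b, Esrra and Tfb2m.

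Among the coactivators, Ppargc1a showed the largest change of all 10 regulators. It stood at 47.0, 50.7 and 46.4 CPM in the libraries labelled Mock and at 26.9, 27.2 and 25.7 CPM in those labelled STAT6. The lowest Mock value was well above the highest STAT6 value, and the replicates lay within a coefficient of variation of 4.83% and 2.94%. The log2 fold change was -0.85 (SE 0.053, edgeR adjusted p = 2.05e-16), or 1.80-fold lower. In absolute size this change was larger than that of 80.7% of all tested genes.

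Its paralog Ppargc1b was not called. It had 21.5, 26.03 and 23.4 CPM in the libraries labelled Mock and 22.7, 22.3 and 22.3 CPM in those labelled STAT6, where all 3 values fell inside the Mock range. Its ratio of STAT6 over Mock was 0.950, with an approximate 95% interval of 0.869 to 1.04 (log2 fold change -0.073, SE 0.066, edgeR adjusted p = 0.320). With library totals in place of TMM it was called lower, at -0.15 (adjusted p = 0.0431). It stood at -0.14 without Mock replicate 1 and at -0.0096 without Mock replicate 2, and was called in neither case.

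Pprc1, which encodes the family member known to respond to growth signals, was lower by a smaller amount. Its values were 76.4, 78.0 and 75.3 CPM in the libraries labelled Mock against 60.3, 67.0 and 61.7 CPM, with no overlap. The log2 fold change was -0.28 (SE 0.043, edgeR adjusted p = 4.2e-07). The 3 coactivator genes thus ranged from -0.85 to -0.073 on the log2 scale.

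The count ratio within a library, which no scaling of the libraries can change, gives the same picture for the paralogs. Ppargc1a counts were 2.19, 1.95 and 1.99 times those of Ppargc1b in the libraries labelled Mock and 1.18, 1.22 and 1.15 times in those labelled STAT6. The ratio was 1.72-fold lower in the latter (difference of log2 ratios -0.78, exact permutation test, 2-sided, p = 0.1; 0.15 after adjustment over the 6 ratios tested), with no overlap. The exact test over the 20 assignments of 3 libraries against 3 cannot give a smaller p.

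Both nuclear respiratory factors were lower, and to nearly the same degree. Nrf1 had 44.9, 44.3 and 45.1 CPM in the libraries labelled Mock and 34.1, 32.6 and 32.4 CPM in those labelled STAT6 (log2 fold change -0.44, SE 0.049, edgeR adjusted p = 8.48e-10). Gabpa, the DNA-binding subunit of GABP, had 110.8, 109.4 and 102.7 CPM against 80.0, 78.9 and 82.1 CPM (log2 fold change -0.42, SE 0.039, edgeR adjusted p = 9.96e-12). Neither gene's groups overlapped. The count ratio of Nrf1 to Gabpa was 0.406, 0.405 and 0.440 in the libraries labelled Mock and 0.426, 0.413 and 0.395 in those labelled STAT6. These ranges overlapped (difference of log2 ratios -0.019, exact permutation test, 2-sided, p = 0.7), and its sign changed when Mock replicate 3 (0.020) or STAT6 replicate 3 (0.010) was left out.

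Esrra, the ERR alpha gene, was not called. It had 12.8, 11.9 and 11.5 CPM in the libraries labelled Mock and 14.1, 12.0 and 13.2 CPM in those labelled STAT6, and the ranges overlapped. The ratio was 1.09 with an approximate 95% interval of 0.978 to 1.22 (log2 fold change 0.13, SE 0.083, edgeR adjusted p = 0.156). The log2 fold change was 0.069 without STAT6 replicate 1 and 0.056 with library totals alone, and neither was called. The genes of the other ERR receptors, Esrrb and Esrrg, did not pass the filter on low counts.

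Within the mtDNA transcription machinery the genes went different ways. Tfam was higher: 66.4, 65.4 and 66.8 CPM in the libraries labelled Mock against 100.8, 96.1 and 101.0 CPM in those labelled STAT6. These groups were far apart relative to their spread, with coefficients of variation of 1.07% and 2.81%. The log2 fold change was 0.58 (SE 0.039, edgeR adjusted p = 1.25e-15), or 1.5-fold higher.

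Polrmt, the polymerase gene, was higher as well. It had 25.4, 21.9 and 28.0 CPM in the libraries labelled Mock and 39.6, 42.5 and 40.6 CPM in those labelled STAT6. The Mock values were the most scattered of any regulator, with a coefficient of variation of 12.2%, but remained below every STAT6 value. The log2 fold change was 0.70 (SE 0.067, edgeR adjusted p = 1.59e-09), or 1.62-fold higher.

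The TFB genes parted. Tfb1m, the rRNA methyltransferase gene, was lower, at 9.90, 8.15 and 8.67 CPM in the libraries labelled Mock and 6.05, 6.08 and 6.27 CPM in those labelled STAT6. Its change was -0.54 on the log2 scale (SE 0.11, edgeR adjusted p = 3.61e-05). It rests on the fewest counts of the 10, 118 to 265 a library. Tfb2m, the initiation factor gene, had 35.4, 34.5 and 36.3 CPM against 37.5, 35.9 and 33.3 CPM, and the STAT6 values spanned the Mock range. Its ratio was 1.01 with an approximate 95% interval of 0.935 to 1.08 (log2 fold change 0.0076, SE 0.053, edgeR adjusted p = 0.905). Counts of Tfb1m per count of Tfb2m were 0.279, 0.236 and 0.239 in the libraries labelled Mock and 0.161, 0.169 and 0.189 in those labelled STAT6. The ratio was 1.45-fold lower in the latter, without overlap (exact permutation test, 2-sided, p = 0.1; 0.15 after adjustment).

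**Figure D2:**
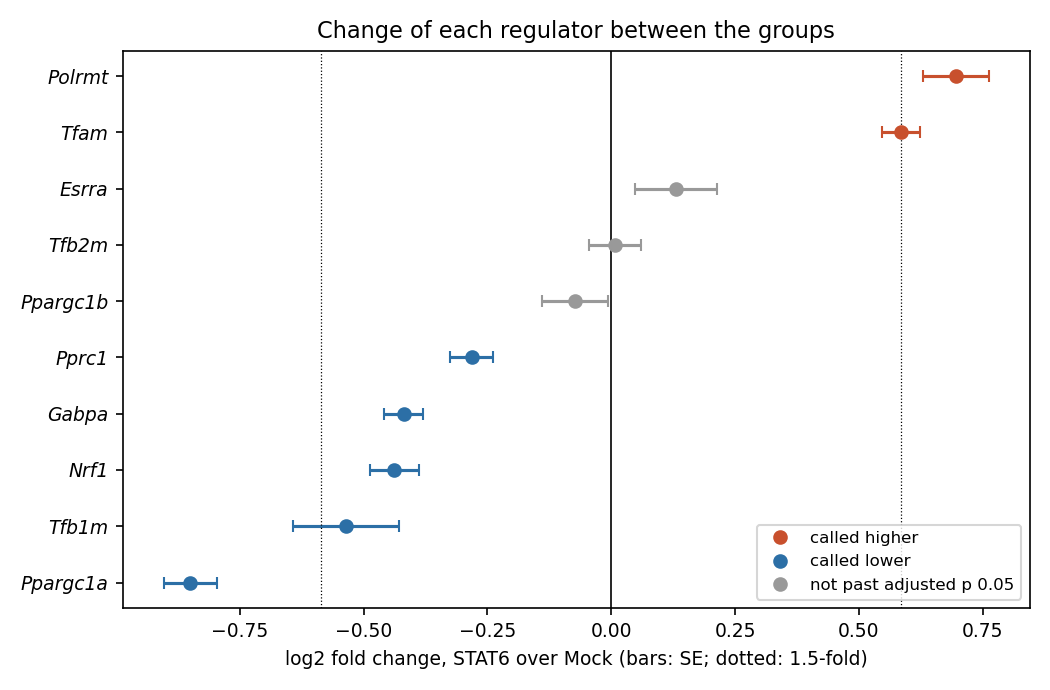
The log2 fold change of each regulator (horizontal axis, STAT6 over Mock) is drawn with a bar of 1 SE on each side, and dotted lines mark 1.5-fold. Polrmt (0.70) and Tfam (0.58) lie on the higher side, Ppargc1a (-0.85) is farthest on the lower side, and Esrra, Tfb2m and Ppargc1b lie nearest to 0.

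NRF1 and GABP are known to bind promoters of mtDNA machinery genes, and the promoters of the human orthologs show what such a site looks like. They are shown because Tfam, Polrmt, Tfb1m and Tfb2m, textbook targets of the same factors, did not change in the same direction here. The sequences are human (RefSeq, GRCh38.p14), whereas the counts carry mouse symbols, so they are background on the gene and were not part of any measurement. Of the 10 genes, 9 had a promoter in the table used, which gives 250 bases before to 50 after each gene start. Both strands were searched for the NRF1 core GCGCANGCG, and matches are in capitals, 5′ to 3′ on the strand of the gene. The motifs were chosen with the data known. A form of the NRF1 core that is 1 letter longer, with a final C, was searched first and shortened after its matches had been seen; the TFB2M match holds the shorter form only.
TFAM (chr10:58385303-58385401, plus strand): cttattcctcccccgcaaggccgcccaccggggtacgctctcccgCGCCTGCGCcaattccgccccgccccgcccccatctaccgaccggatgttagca
POLRMT (chr19:633502-633606, minus strand): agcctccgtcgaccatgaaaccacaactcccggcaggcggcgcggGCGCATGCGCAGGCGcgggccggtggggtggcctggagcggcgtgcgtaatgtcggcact
TFB1M (chr6:155314562-155314661, minus strand): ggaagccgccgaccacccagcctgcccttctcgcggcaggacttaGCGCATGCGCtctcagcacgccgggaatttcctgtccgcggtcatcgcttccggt
TFB2M (chr1:246566224-246566322, minus strand): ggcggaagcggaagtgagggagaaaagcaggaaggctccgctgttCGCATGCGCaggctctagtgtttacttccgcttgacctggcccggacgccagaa
The first match began 62 bases before the gene start in TFAM, 24 in POLRMT, 132 in TFB1M and 16 in TFB2M. The core is nearly a palindrome, so POLRMT holds 3 matches that overlap and TFB1M 2. ESRRA held 1 match too, 93 bases before its start. In all, 5 of the 10 promoters of these genes (PPARGC1A has 2) held the core, and so did 7.52% of the 35116 promoters of the table. The genes include textbook targets of NRF1 and the core was shortened after its matches were seen, so these shares test nothing. The ETS core CCGGAAG, the letters read by GABP and by other ETS factors, was found in the promoters of POLRMT, TFB1M and GABPA and in 10.3% of all promoters. A match of letters is a description and does not show binding.

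The mRNAs that POLRMT transcribes from mtDNA were compared with the machinery within each library. Of the 13 mtDNA-encoded protein genes 12 were called higher, against 35.8% of all genes tested. The other, ATP8, was called lower by a small margin (log2 fold change -0.065, SE 0.027, edgeR adjusted p = 0.0292) with groups that overlapped, and that call was lost with DESeq2 and when Mock replicate 2 or either of STAT6 replicates 1 and 3 was left out. Against a change of more than 1.5-fold (glmTreat), 1 of the 13 was called higher, ND4 (0.72), and 0 lower. Over all genes, 14.0% were higher and 7.51% lower by this test. Together the 13 took 9.82% to 10.1% of counts in the libraries labelled Mock and 11.9% to 12.2% in those labelled STAT6. Per count of Polrmt there were 3750, 4545 and 3462 counts of these mRNAs in the libraries labelled Mock and 3061, 2943 and 3079 in those labelled STAT6. The groups did not overlap, and the ratio was 1.29-fold lower in the libraries labelled STAT6 (exact permutation test, 2-sided, p = 0.1; 0.15 after adjustment). Per count of Tfam there were 1437, 1518 and 1449 against 1205, 1301 and 1238, a ratio 1.18-fold lower with no overlap (exact permutation test, 2-sided, p = 0.1; 0.15 after adjustment). The ratio of Tfam to Polrmt itself, 2.61, 2.99 and 2.39 against 2.54, 2.26 and 2.49, overlapped between groups (exact permutation test, 2-sided, p = 0.4). Its difference of log2 ratios was -0.13, and ranged from -0.20 without Mock replicate 3 to -0.041 without Mock replicate 2. The difference of log2 ratios for mtDNA mRNAs to Polrmt was -0.36, or -0.25 without Mock replicate 2.

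**Figure D3:**
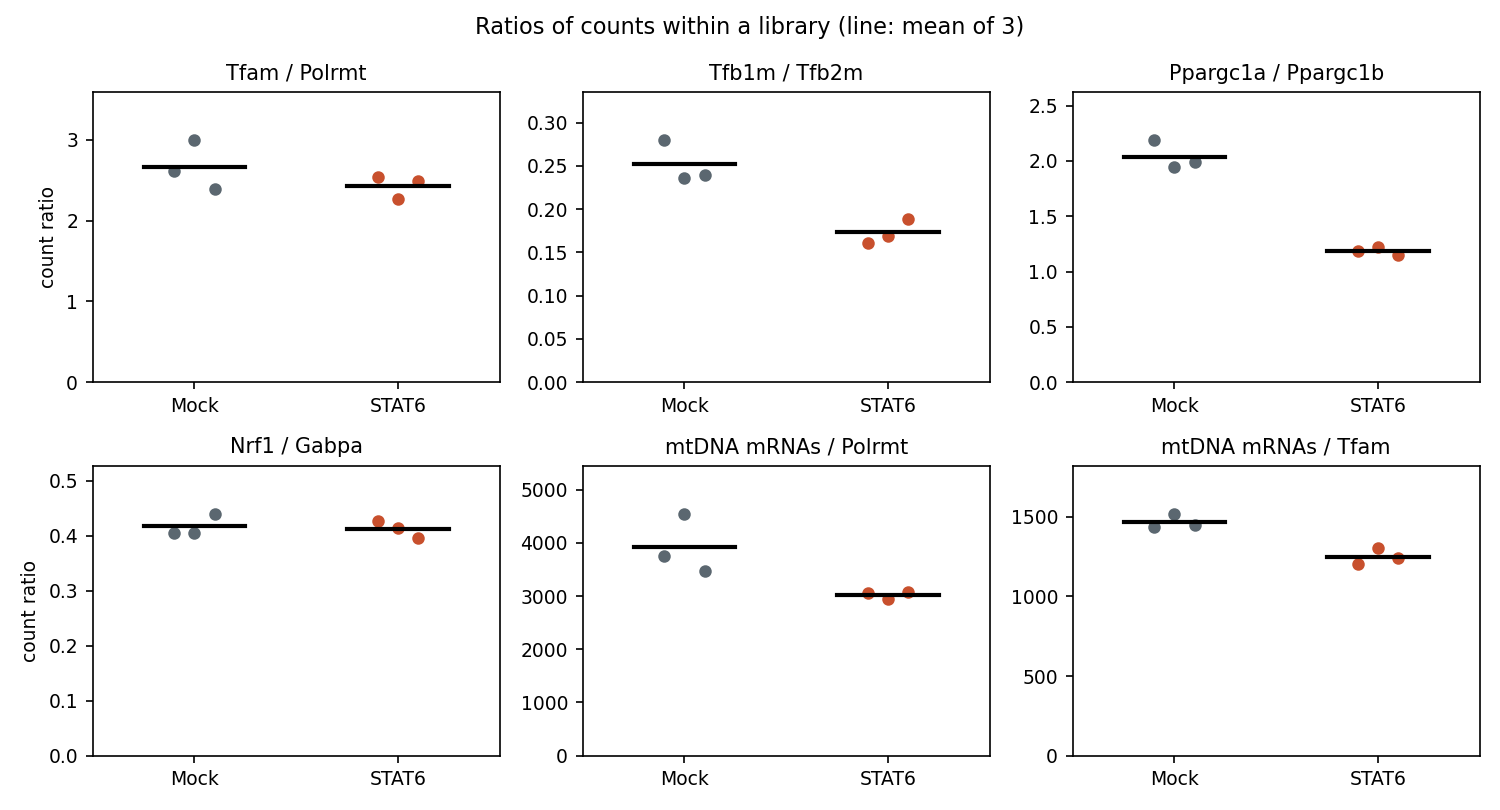
Each panel plots a ratio of counts within a library (vertical axis, from 0) for the 3 libraries of each group, with a line at the mean. The groups are apart for Tfb1m to Tfb2m, Ppargc1a to Ppargc1b and both ratios of mtDNA mRNAs, and overlap for Tfam to Polrmt and Nrf1 to Gabpa.

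Most genes next to Polrmt were higher, as Polrmt was. No mouse annotation was used, so neighbours were taken from the order of the human genes (GRCh38.p14), in which 10615 of the 12938 tested genes (82.0%) could be placed by name. Mouse order can differ. Of the 5 nearest tested genes on each side of Polrmt, 9 were higher (90%, against 35.8% of all genes) and 1, Ptbp1, was lower. Their median log2 fold change, 0.95, was larger than the 0.70 of Polrmt itself. Its direct neighbours were Hcn2 (0.95) and Rnf126 (0.40). On the same human chromosome, 16 tested genes lie between Polrmt and Stk11, which encodes LKB1, the kinase that activates AMPK. Of these 14 were higher and 2 lower, and Stk11 rose by 1.52 (SE 0.039, edgeR adjusted p = 9.06e-28).

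Around Tfam the 10 neighbours had a median of 0.36, 8 of them higher and 1 lower, the direct neighbours being Ube2d1 (0.72) and Fam13c (-0.28, not past the threshold). Around Ppargc1a 3 were higher and 6 lower, with a median of -0.27, and both direct neighbours, Adgra3 (-0.76) and Dhx15 (-0.60), were lower. Around Nrf1 and Gabpa, which were lower, 5 of 10 neighbours were higher in each case, against 3 and 2 lower. Over all regulators, 48 of the neighbours were higher and 32 lower, or 80.8% called, where 72.6% of all tested genes were. By direction, 35.8% of all tested genes were higher and 36.8% lower. Whether position takes part in any of these changes was not tested.

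**Figure D4:**
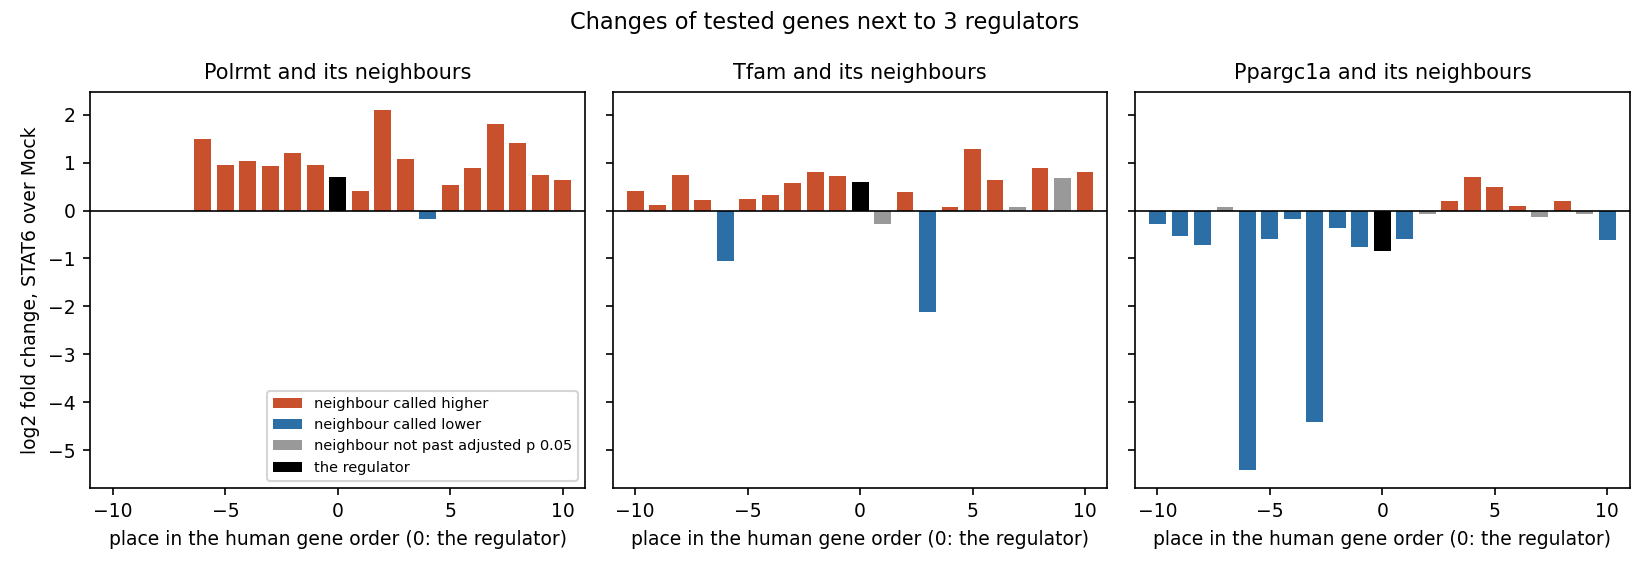
Bars give the log2 fold change (vertical axis, STAT6 over Mock) of tested genes by their place in the human gene order around Polrmt, Tfam and Ppargc1a (black bar at place 0). Of the 16 neighbours of Polrmt drawn, 15 are called higher, and of the 20 of Tfam, 15 are.

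Partners that the regulators need were mostly lower or not called. Of 26 tested genes for GABP beta subunits, nuclear receptors and cofactors, 5 passed as higher and 13 as lower (50% lower, against 36.8% of all genes), and the median log2 fold change was -0.11. Gabpb1 and Gabpb2, the beta subunits that give GABP its activation domain, were lower, Gabpb1 by -0.22 (edgeR adjusted p = 0.000653) and Gabpb2 by -0.62 (8.25e-12). Hcfc1, a cofactor of GABP and of PGC-1 coactivators, went from 293 ± 14.0 to 191 ± 9.81 CPM (-0.61), Med1 of the Mediator complex was at -0.56 and the receptor gene Rxra at -0.43. Foxo3, a forkhead factor, rose from 63.5 ± 2.55 to 132 ± 2.71 CPM (1.06). Against a change of more than 1.5-fold (glmTreat), 3 of the 26 were called higher and 0 lower (over all genes 14.0% and 7.51%). These were Foxo3, Esr1 (3.15, means of 0.260 and 2.34 CPM) and Thrb (1.91, means of 0.836 and 3.21 CPM), the Mock mean first. The list ranged from -0.62 to 3.15.

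Among 33 tested signals upstream of PGC-1, 8 were higher and 19 lower (57.6% lower, against 36.8% of all genes), with a median of -0.15. The list pools genes that act on PGC-1 alpha whatever the direction of their effect, so the count gives no direction of PGC-1 activity. Sirt1, the deacetylase that activates PGC-1 alpha, rose from 21.9 ± 2.06 to 39.6 ± 1.69 CPM (log2 fold change 0.86, SE 0.061, edgeR adjusted p = 1.03e-14). Prkag2, an AMPK subunit, was at -0.93, the methyltransferase gene Prmt1 at -0.70 and the stress factor gene Atf4 at -0.64. Mitf, known as an activator of Ppargc1a in pigment cells, was higher by 0.19 (423 ± 13.3 against 482 ± 13.9 CPM, edgeR adjusted p = 1.55e-06), and by 0.11 with library totals alone. Ppargc1a and Mitf were thus called in opposite directions.

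Most factors that act on mtDNA transcripts after initiation were lower. Of 29 tested, 4 were higher and 21 lower (72.4% lower, against 36.8% of all genes), with a median of -0.31. Tefm, the elongation factor of POLRMT, stood at 13.6 ± 0.775 CPM in the libraries labelled Mock and 6.78 ± 0.103 in those labelled STAT6 (log2 fold change -1.005, SE 0.091, edgeR adjusted p = 5.14e-12), the opposite direction to Polrmt. Fastk, an RNA-binding protein that stabilises ND6 mRNA, was at -0.99, Pnpt1, a subunit of the mitochondrial RNA degradosome, at -0.70, Ptcd2 at -0.68, and Lrpprc, which stabilises mitochondrial mRNAs, at -0.59.

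For mtDNA replication and the nucleoid, 6 of 25 were higher and 14 lower (56% lower, against 36.8% of all genes). The median was -0.23. The count of higher genes was 3 without STAT6 replicate 1 (16 lower) and 3 with library totals alone (15 lower). Polg, the catalytic subunit of the mtDNA polymerase, was not called (51.5 ± 0.622 against 53.0 ± 2.46 CPM, log2 fold change 0.041, edgeR adjusted p = 0.421). The DNA ligase gene Lig3 (-0.94) and the pyrimidine nucleotide carrier gene Slc25a33 (-0.98) were lower, and the related carrier gene Slc25a36 (0.52) and the nuclease-helicase gene Dna2 (0.57) were higher. Enzymes and factors for mitochondrial rRNA numbered 16 tested, 1 higher and 8 lower (50% lower, against 36.8% of all genes). Their median was -0.29, and with library totals alone 0 were higher and 11 lower. Tfb1m was among the 8 with Mterf3 (-0.78), Rcc1l (-0.52), Rpusd4 (-0.47) and Dimt1 (-0.42), the last of which acts on cytosolic ribosomes.

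Textbook targets of NRF1 and GABP, a list that holds 4 of the 10 regulators, numbered 33 tested. Of these, 9 were higher and 14 lower (42.4% lower, near the 36.8% of all genes), and the median was -0.044. Among the 9 higher were Cox17, a copper chaperone of complex IV (0.64), and the complex III subunit gene Uqcrq (0.58), with Tfam and Polrmt. Among the 14 lower was the complex I subunit gene Ndufs8 (-0.79). Textbook targets of ERR alpha and PGC-1 alpha, a list that holds Esrra, numbered 29 tested. Of these, 8 were higher and 17 lower (58.6% lower, against 36.8% of all genes), at a median of -0.24. Vegfa, the angiogenic factor, fell from 13.1 ± 0.631 to 2.41 ± 0.278 CPM (-2.45, SE 0.12, edgeR adjusted p = 1.38e-19), and the adenine nucleotide carrier gene Slc25a5 was at -0.62. Ogdh of the TCA cycle (0.92) and Cpt1a of fatty acid import (0.87) were higher. The related lists share genes, such as Mterf3, so their counts are not independent. None of these lists was tested as a set.

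**Figure D5:**
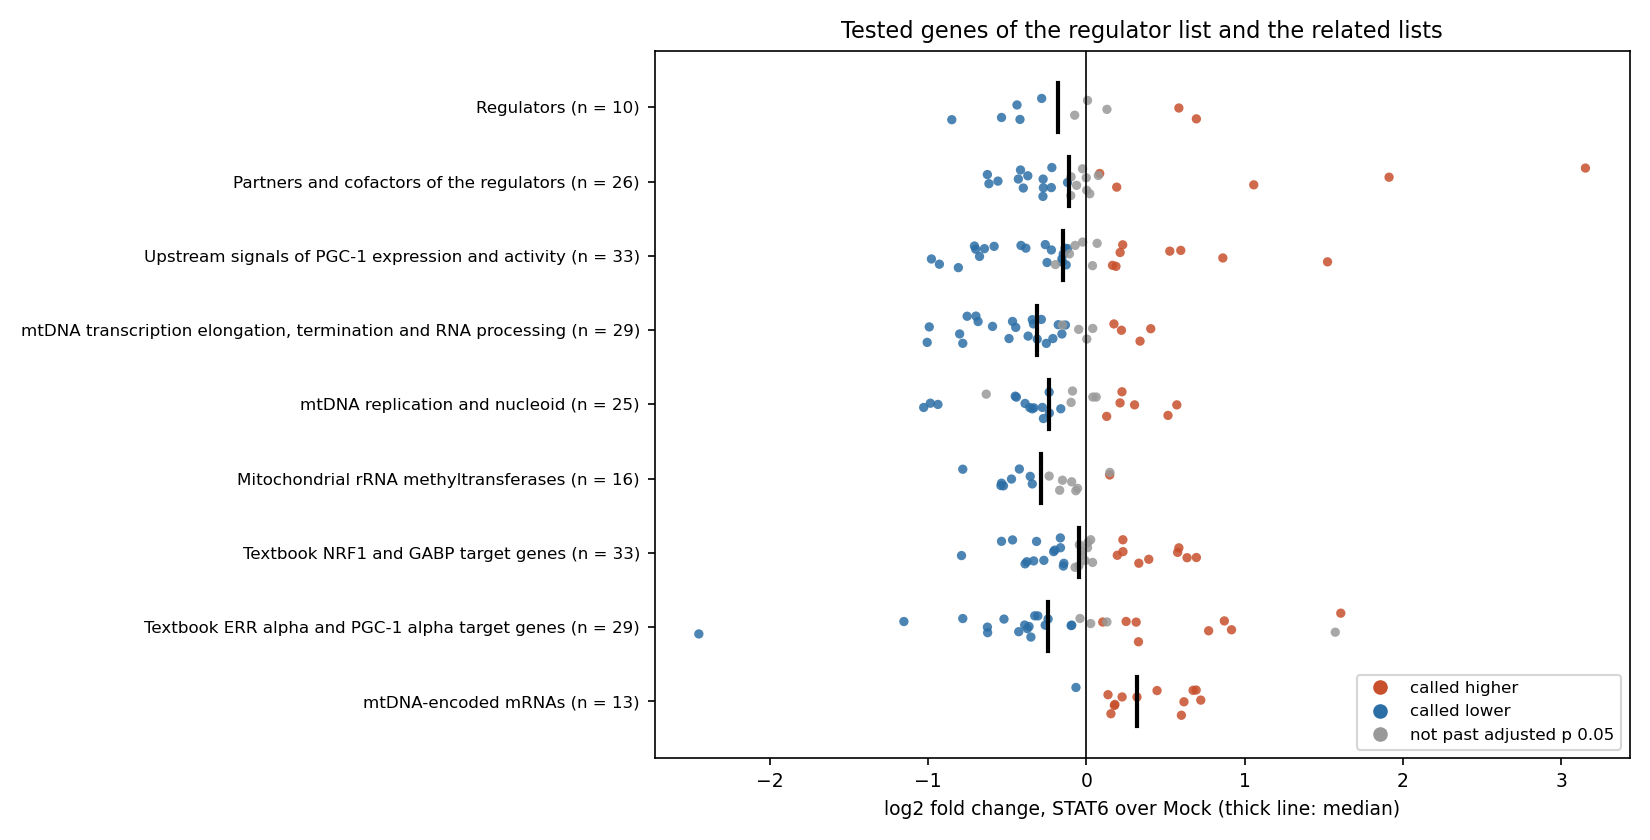
Points are the log2 fold changes (horizontal axis, STAT6 over Mock) of the tested genes in the regulator list and 8 related lists, coloured by call, with a thick line at each median. Medians lie below 0 in every list drawn except the mtDNA-encoded mRNAs (0.32), and 21 of 29 post-initiation factors are called lower.

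Genes with the most similar profiles over the 6 libraries were found by the root mean square difference of centred log2 CPM, among 11601 other named genes. Closest to Ppargc1a were Lrp8 (difference 0.030, 75.9 against 42.3 CPM), Rragd (0.030, 49.2 against 26.7 CPM) and Sox11 (0.032, 189 against 107 CPM), the Mock mean first. Closest to Tfam were Lonp2 (0.0055, 55.7 against 83.6 CPM), Tmod1 (0.013, 45.4 against 67.6 CPM) and Rtkn (0.021, 73.1 against 110 CPM). The measure is dominated by the difference between the 2 groups and is a description.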

How the data were processed

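Each library has a deposited file with 1 whole-number count per gene symbol, per the file headers, and no normalized value. FastQC, STAR, Salmon and edgeR are the tools, and GRCh37 the build, in the submitters' processing notes. The way reads were assigned and the strand setting were not given in the sources used here, and overlapping and antisense genes cannot be separated.

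The deposited counts were analysed with edgeR 4.0.16 in R 4.3.3: filterByExpr (12938 genes, 99.9% of counts), TMM, the 2-sided quasi-likelihood test on group alone, with p adjusted by Benjamini-Hochberg across the genes tested. SE is the fold change over the root of F, and intervals are normal approximations from it. Ratios of counts used exact permutation tests. The fit was tested on simulated data. Members and lists were chosen with earlier results of these data known. Named genes are all members, up to 4 per list with the smallest adjusted p, Gabpb1, Gabpb2, Tefm, Sirt1, Mitf and Polg, direct neighbours, Stat6 and the closest profiles. Ptbp1, Esr1, Thrb and ATP8 were named after their values were seen. Alternatives were other scalings and filters, DESeq2 1.42.0, limma-voom (limma 3.58.1), a replicate block, mtDNA genes left out, stricter thresholds and each library left out.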

Additional observations from a re-analysis of the deposited data

How the results depend on the processing

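The calls of the 7 regulators past the threshold held under every alternative run except the test for a change beyond 1.5-fold, where 1 regulator was called in place of 7 and 2779 genes in place of 9399. There Pprc1 (log2 fold change -0.28), Nrf1 (-0.44), Gabpa (-0.42) and Tfb1m (-0.54) each had an adjusted p of 1, Tfam (0.58) had 0.835 and Polrmt (0.70) had 0.0721. With library totals alone Ppargc1b passed at -0.15. Tfb2m, never past the threshold, changed sign with library totals alone (-0.066), upper-quartile scaling (-0.0080) and no filter (-0.0093), and ranged from -0.037 to 0.050 when each library was left out. The log2 ratio of Nrf1 to Gabpa ranged from -0.044 to 0.020 in the same way, and Polg was -0.033 with library totals alone. The cause was not tested. Same-numbered libraries of the groups deviated together at r of 0.031 to 0.102, with 1 of 3 pairs over 0.1. Of the 6 libraries, 5 correlated best with their own number. The correlations were weak, and they do not settle whether the numbers pair the samples. With the replicate block 9422 genes were called and the 7 regulators called were 5 lower and 2 higher. Tfb1m, at 118 to 265 counts a library, is the regulator whose precision depth limits most.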
